A study of Mus musculus with 21 samples.

Results

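The hyaluronan receptor gene Cd44 and 7 genes that make, cut or bind hyaluronan (Has1, Has2, Has3, Hyal1, Hyal2, Cemip and Hmmr) were examined in mouse cells in which the long noncoding RNA Esrp2-as was changed. The members were listed by gene symbol, with earlier results of these data known. All 8 were among the 48440 genes of the deposited count table. They had 35 of the 117667 transcripts, 9 of them from Cd44. The RNA of 14 biological replicates was sequenced after removal of ribosomal RNA. Levels are given as CPM, the counts of a gene scaled to a common library size, and transcript shares as the percentage of a gene's counts assigned to each transcript.

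M6 cells, a line from a mammary tumour of C3(1)SV40 TAg mice, received an LNA antisense gapmer against Esrp2-as in the M6 knockdown (n = 2), and are set against an M6 control described in the labels as an empty vector (n = 2). M27H4 cells, from a mammary tumour of the same mouse model, overexpressed Esrp2-as (n = 3) or were controls labelled empty vector (n = 3). 3T3-L1 preadipocytes overexpressed Esrp2-as (n = 2) or were controls labelled empty vector (n = 2). All were grown in DMEM with 10% FCS. The cells of both tumour lines come from mice that carry the SV40 T antigen, in the controls as well, and each cell type is represented by 1 line. The labels call the replicates biological without saying whether they were separate cultures, so p-values measure the spread between these samples.

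Hyaluronan is a long sugar polymer of the extracellular matrix. It is made at the plasma membrane by the hyaluronan synthases Has1, Has2 and Has3. It is shortened by the hyaluronidases Hyal1, which acts in lysosomes, and Hyal2, which is anchored to the cell surface, and by Cemip, a protein needed for hyaluronan breakdown in fibroblasts. Cd44 is its main cell surface receptor. Hmmr also binds hyaluronan and is known as a spindle protein of dividing cells. The Cd44 transcript can carry a block of variable exons that lengthen the part of the receptor outside the cell. Epithelial cells usually include variable exons and mesenchymal cells usually skip them, and the splicing regulators Esrp1 and Esrp2 are known to favour their inclusion.

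Cd44 (ENSMUSG00000005087) lies on the minus strand of chr2:102811141-102901665 (GRCm38, GENCODE M21). Its 10 variable exons, v1 to v10 in order of transcription, lie within chr2:102828611-102853014 and have 1245 bases in total, and the length of each is a multiple of 3. The 8 protein-coding transcripts share the exon before this block and differ in the exon that follows it. The junctions below are shown because they tell these transcripts apart. Lower case marks the 18 last bases of the shared exon, and capitals mark the 18 first bases of the exon joined to it, 5′ to 3′ on the minus strand.
Cd44-201 (joined to v1, holds v1 to v10): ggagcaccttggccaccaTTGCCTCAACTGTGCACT
Cd44-208 (joined to v4, holds v4 to v10): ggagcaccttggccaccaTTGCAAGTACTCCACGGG
Cd44-207 (joined to v5, holds v5, v6 and v8 to v10): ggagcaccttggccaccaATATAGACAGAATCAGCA
Cd44-202 (joined to v6, holds v6 to v10): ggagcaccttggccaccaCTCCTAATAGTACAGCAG
Cd44-205 (joined to v8, holds v8 to v10): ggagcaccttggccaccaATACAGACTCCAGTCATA
Cd44-204 (joined to v9, holds v9 and v10): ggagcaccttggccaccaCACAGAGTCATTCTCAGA
Cd44-206 (joined to v10, holds v10): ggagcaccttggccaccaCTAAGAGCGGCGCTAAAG
Cd44-203 (joined to the constitutive exon after the block, the standard form): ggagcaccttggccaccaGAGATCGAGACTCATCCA

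The ninth transcript, Cd44-209, is annotated as a retained intron and ends inside the variable region. The exons v4 to v7 are where inclusion differed most between M6 knockdown and M6 control, and they are given whole, 5′ to 3′ on the minus strand, in lower case. They lie at chr2:102842836-102842949 (v4), chr2:102842261-102842377 (v5), chr2:102839358-102839477 (v6) and chr2:102837813-102837938 (v7).
v4: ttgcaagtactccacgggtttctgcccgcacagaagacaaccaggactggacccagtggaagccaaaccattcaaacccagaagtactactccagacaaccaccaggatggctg
v5: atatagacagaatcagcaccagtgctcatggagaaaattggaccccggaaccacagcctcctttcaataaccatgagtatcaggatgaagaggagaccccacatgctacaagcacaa
v6: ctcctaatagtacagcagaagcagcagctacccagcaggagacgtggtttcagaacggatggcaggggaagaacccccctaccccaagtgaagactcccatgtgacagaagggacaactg
v7: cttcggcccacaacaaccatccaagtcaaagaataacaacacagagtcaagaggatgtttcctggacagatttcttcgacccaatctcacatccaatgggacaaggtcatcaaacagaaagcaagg

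Replicates held 34892461 to 328493417 counts. Esrp2-as had 0.527 and 0.851 CPM in M6 knockdown against 2.96 and 2.42 in M6 control, 15.9 to 65.9 in M27H4 overexpression against 0.731 to 1.25 in M27H4 control, and 35.5 and 45.8 in 3T3-L1 overexpression against 0.250 and 0.355 in 3T3-L1 control. Esrp2 is overlapped on the other strand by Nfatc3 and by 1810019D21Rik, the gene counted as Esrp2-as. The strand setting is not given, so the values of Esrp2-as and Esrp2 are uncertain where reads could be split. The summed level of 8 mammary epithelium markers was 3395 to 5747 CPM in M6, 153 to 286 in M27H4 and 21.2 to 26.9 in 3T3-L1. That of 8 fibroblast and preadipocyte markers was 278 to 529, 1802 to 2165 and 4234 to 5313 CPM in the same order of lines. Within M6 it was 278 and 352 CPM in knockdown, against 420 and 529 CPM in control, so these groups were apart, while 0 of the 8 genes were called. M27H4 therefore held little of the epithelial signal of M6, although its label also names a mammary tumour. Immune markers (5 genes) summed to 1.10 to 3.11 CPM in all groups, with Cd3e at 0 in 5 of the 6 groups, and endothelial markers (4 genes) to at most 32.2 CPM, reached in M27H4 control. In bulk RNA, fewer cells of a type and less RNA per cell cannot be told apart.

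Of the 8 members, 7 passed the filter on low counts, and Has1 did not. The counts behind 1 replicate's value were 5145 to 28999 for Cd44, 4820 to 60002 for Has2, 6111 to 51328 for Hmmr, 307 to 8289 for Hyal2, 86 to 1459 for Hyal1, 172 to 2451 for Cemip and 6 to 61 for Has3. Ranked by TPM, a level that allows for gene length, M6 knockdown had Has2 first (mean 123) and then Cd44 (96.8), Hmmr (61.4) and Hyal2 (15.6). M6 control had Cd44 first (65.5), then Hmmr (58.5), Has2 (52.9) and Hyal2 (14.5). Each of these orders held in every replicate of its group. The ratio of Has2 to Cd44 on this per-length scale was 1.31 and 1.20 in M6 knockdown, 0.828 and 0.766 in M6 control, and at most 0.963 in M27H4 and 3T3-L1. On this scale M6 knockdown was thus the group in which the synthase stood above the receptor. In CPM Has2 stood above Cd44 in both M6 control replicates too (183 against 117, and 146 against 91.2). The TPM of Cd44 depends on the transcripts assigned, of 1305 to 5614 bases, whose shares differed between the M6 groups. The part of these lengths in the ratio was not tested.

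**Figure D1:**
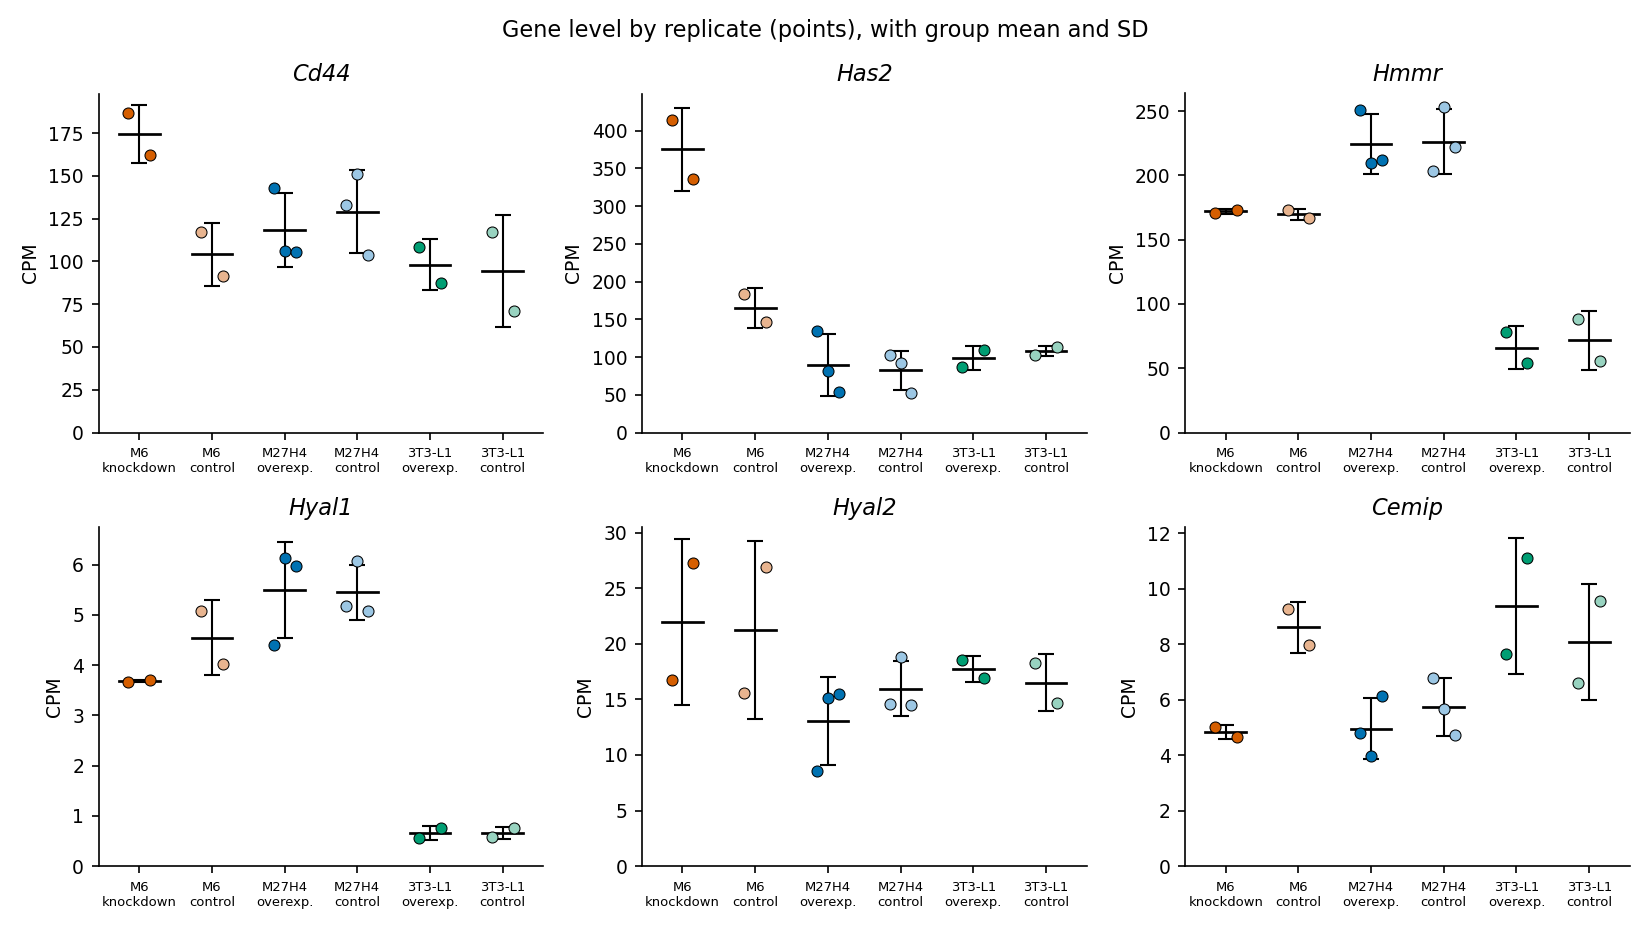
Level of 6 members in CPM by group, 1 point per replicate, with the group mean (line) and SD (bar), each vertical axis starting at 0. Cd44 and Has2 stand highest in M6 knockdown, Hyal1 stands below 1 CPM in both 3T3-L1 groups, and Hmmr is lower in 3T3-L1 than in the other lines.

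The receptor Cd44 was higher in both M6 knockdown replicates than in both M6 controls, but the difference did not pass the test over all genes. Cd44 had 187 and 162 CPM in M6 knockdown, against 117 and 91.2 CPM in M6 control. The groups did not overlap. The means were 175 ± 17.1 and 104 ± 18.5 CPM (SD, n = 2 each), a log2 fold change of 0.74 (SE 0.27, 95% interval 0.16 to 1.32) with an adjusted p of 0.604 in edgeR's quasi-likelihood test. Of the 7 tested members 0 were called in this comparison, in which 0.137% of all genes tested were called, while 3 members (Cd44, Has2 and Cemip) had an unadjusted p under 0.05. The median log2 fold change of the 7 was 0.02, against −0.03 over all genes tested. Ranges of the groups were apart for 4 of the 7, with Cd44 and Has2 above and Cemip and Hyal1 below the controls, and for 26.4% of all genes tested.

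Overexpression of Esrp2-as left Cd44 within the spread of the controls. Cd44 had 143, 106 and 105 CPM in M27H4 overexpression, against 133, 151 and 104 CPM in M27H4 control, a log2 fold change of −0.13 (95% interval −0.60 to 0.34, edgeR adjusted p = 1). It had 109 and 87.5 CPM in 3T3-L1 overexpression, against 117 and 71.2 CPM in 3T3-L1 control, a log2 fold change of 0.06 (95% interval −0.52 to 0.63, edgeR adjusted p = 1). The groups overlapped in both lines. The effect in M27H4 minus that in 3T3-L1 was −0.19 (95% interval −0.93 to 0.56). In both lines 0 of the 7 tested members were called, and 0 had an unadjusted p under 0.05; 0.00942% of all genes tested were called in M27H4 and 0.00471% in 3T3-L1. Leaving out Has3, whose counts were low, the members' 95% intervals ran from −0.88 to 0.77 in M27H4 and from −0.94 to 0.86 in 3T3-L1.

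Between the controls of the 3 lines the level of Cd44 did not pass the test either. M27H4 control minus M6 control was 0.31 (95% interval −0.22 to 0.84, edgeR adjusted p = 0.392), 3T3-L1 control minus M6 control was −0.15 (adjusted p = 0.707) and 3T3-L1 control minus M27H4 control was −0.46 (adjusted p = 0.173). In the order of group means, M6 knockdown stood apart from the next group, and each of the other groups overlapped its neighbour.

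**Figure D2:**
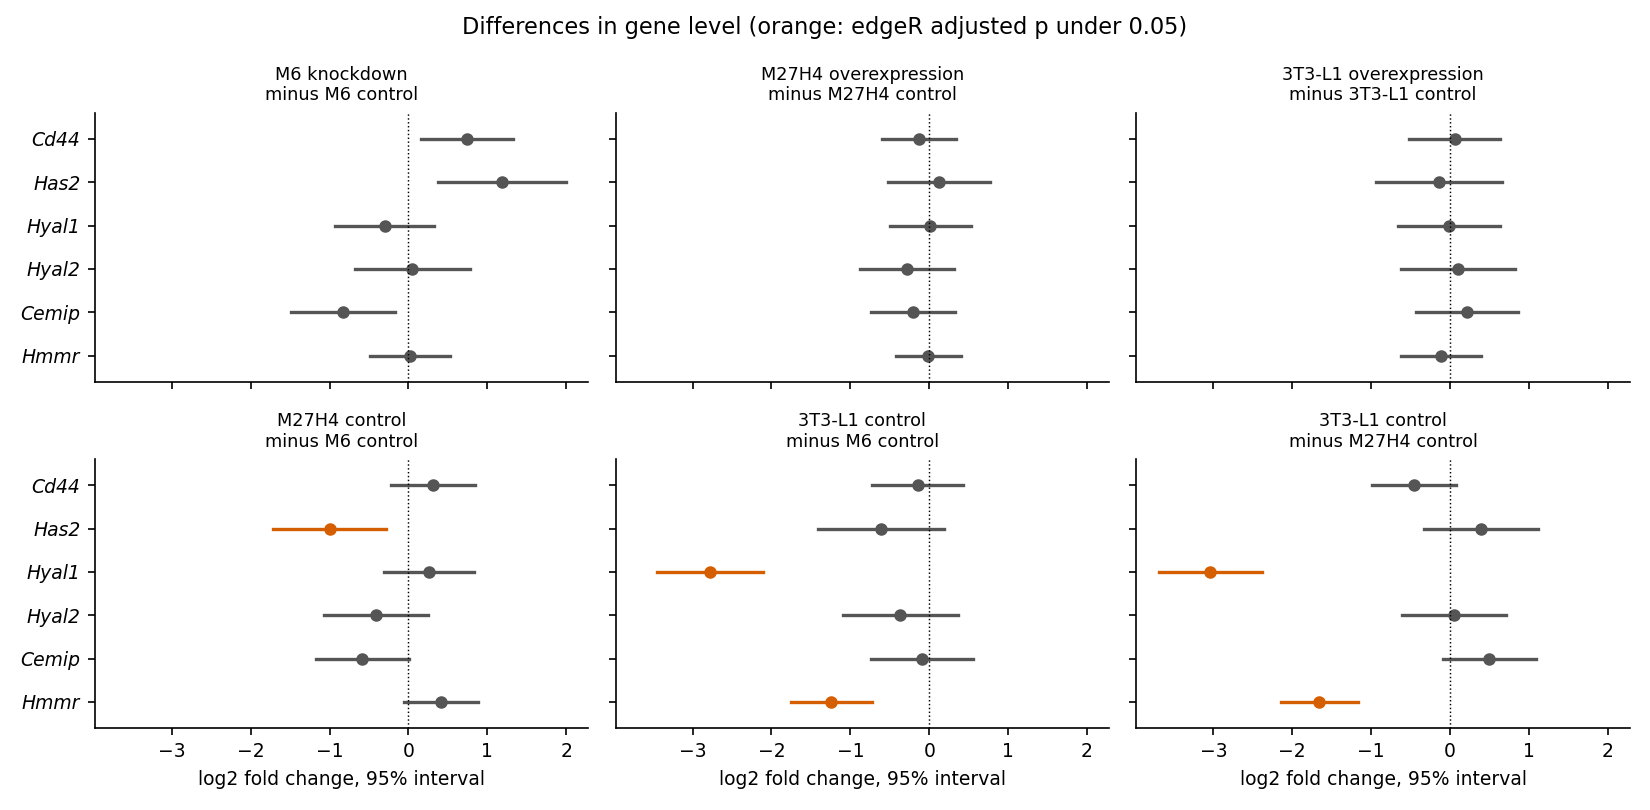
Log2 fold change of 6 members in each of 6 comparisons (points) with the 95% interval (line), from a single edgeR fit over all groups; orange marks an adjusted p under 0.05. No member is orange in the knockdown or overexpression comparisons, and Has2, Hyal1 and Hmmr are orange between lines.

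The shares of Cd44 transcripts differed between the lines. The standard form Cd44-203, without variable exons, took 86.4, 79.7 and 74.0% of Cd44 counts in M27H4 control and 72.3 and 70.0% in 3T3-L1 control, against 4.01 and 3.73% in M6 control. The groups were far apart. Its mean share was 80.1 ± 6.19% in M27H4 control (SD, n = 3) and 71.1 ± 1.63% in 3T3-L1 control (SD, n = 2), against 3.87 ± 0.196% in M6 control (SD, n = 2). The difference from M6 was 76.2 points for M27H4 (limma adjusted p = 0.000477) and 67.3 points for 3T3-L1 (adjusted p = 0.000768). Between 3T3-L1 control and M27H4 control it was −8.91 points (adjusted p = 0.686).

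Except for Cd44-206, forms with variable exons had higher mean shares in M6 control and made up the difference in M6. Cd44-206, which holds v10, had 15.2 and 6.80% in 3T3-L1 control, against 1.59 and 0.680% in M6 control (9.86 points, limma adjusted p = 0.0629). In M27H4 control its mean was 3.34% (2.20 points, adjusted p = 0.700). Cd44-202 and Cd44-204 were lower than in M6 control without being called (adjusted p = 0.771 and 0.610 for M27H4, 0.522 and 0.227 for 3T3-L1). Cd44-208, which holds v4 to v10, had a share of 0 in all M27H4 and 3T3-L1 controls, against 23.1 and 15.2% in M6 control (adjusted p = 0.00294 and 0.00229). In these replicates a count of 0 allows a share of up to 0.0367%, for counting error only. Cd44-205, which holds v8 to v10, had 1.07 ± 1.11% in M27H4 control and 1.19 ± 1.45% in 3T3-L1 control, against 26.4 ± 3.44% in M6 control (adjusted p = 0.0138 and 0.0125). Cd44-201, which holds all variable exons, had 0.411 ± 0.159% and 2.30 ± 2.48%, against 14.8 ± 0.0346% in M6 control (adjusted p = 0.00925 and 0.0274). Thus 1 of the 8 tested Cd44 transcripts was called higher and 3 lower in each of these comparisons. The minimum share for testing was a mean over all 14 replicates. Cd44-201, Cd44-205 and Cd44-208 (means 3.14, 6.65 and 3.78%) reached it through the M6 replicates, where they are high. Their lower calls are therefore a description and no separate support. Of all transcripts tested, 0.465% were called for M27H4 (0.201% higher, 0.263% lower) and 1.45% for 3T3-L1 (0.802% higher, 0.647% lower). Of the Cd44 transcripts 0 were called between 3T3-L1 control and M27H4 control, where 1.28% were called. On the log odds of the share Cd44-206 was called higher for 3T3-L1 (adjusted p = 0.0397). It was also called there with no minimum share (0.0293) and with counts per kilobase (0.0277). The calls of Cd44-203 held under all alternatives run. Those of Cd44-208 held without each single replicate in turn, but ended on the log odds of the share (adjusted p = 0.0687 for M27H4, 0.0644 for 3T3-L1). On that scale Cd44-205 ended too (0.582 and 0.592), as did Cd44-201 for 3T3-L1 (0.151). With counts per kilobase Cd44-201 ended for both lines (0.104 and 0.203), and with the LR code that holds only M6 columns it ended for 3T3-L1 (0.0514). That of Cd44-201 for M27H4 ended without M6 control replicate 1 (adjusted p = 0.0917). That for 3T3-L1 ended without M6 control replicate 1 (0.165), M6 control replicate 2 (0.0786) or 3T3-L1 control replicate 1 (0.143). That of Cd44-205 ended without M6 control replicate 1 (0.0920 for M27H4, 0.0627 for 3T3-L1) or replicate 2 (0.0501 and 0.0565), and for 3T3-L1 also without 3T3-L1 control replicate 1 (0.0807).

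Summed over the 7 transcripts with variable exons, the share was 10.3, 15.1 and 20.5% in M27H4 control and 19.1 and 21.3% in 3T3-L1 control, against 89.5 and 90.9% in M6 control. The difference was −74.9 points for M27H4 and −70.0 points for 3T3-L1, and the exact two-sided permutation p was the smallest these group sizes allow, 0.2 for M27H4 and 0.333 for 3T3-L1. As a level, variable transcripts had 13.7, 22.8 and 21.2 CPM in M27H4 control and 22.4 and 15.1 CPM in 3T3-L1 control, against 105 and 82.9 CPM in M6 control. The splicing regulator Esrp1 had 0, 0.985 and 1.03 CPM in M27H4 control and 0.378 and 0.565 CPM in 3T3-L1 control, against 122 and 106 CPM in M6 control. Its relative Esrp2 had 11.3 to 15 CPM in M27H4 control and 0.291 and 0.319 CPM in 3T3-L1 control, against 65.9 and 58.8 CPM in M6 control. The part of either regulator in the splicing difference was not tested. Columns that share an LR code in their names held controls of all 3 lines for a pair of codes, and in these columns the variable share was 9.74 and 19.4% in M27H4 control and 19.6 and 18.7% in 3T3-L1 control, against 92.3 and 89.8% in M6 control.

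**Figure D3:**
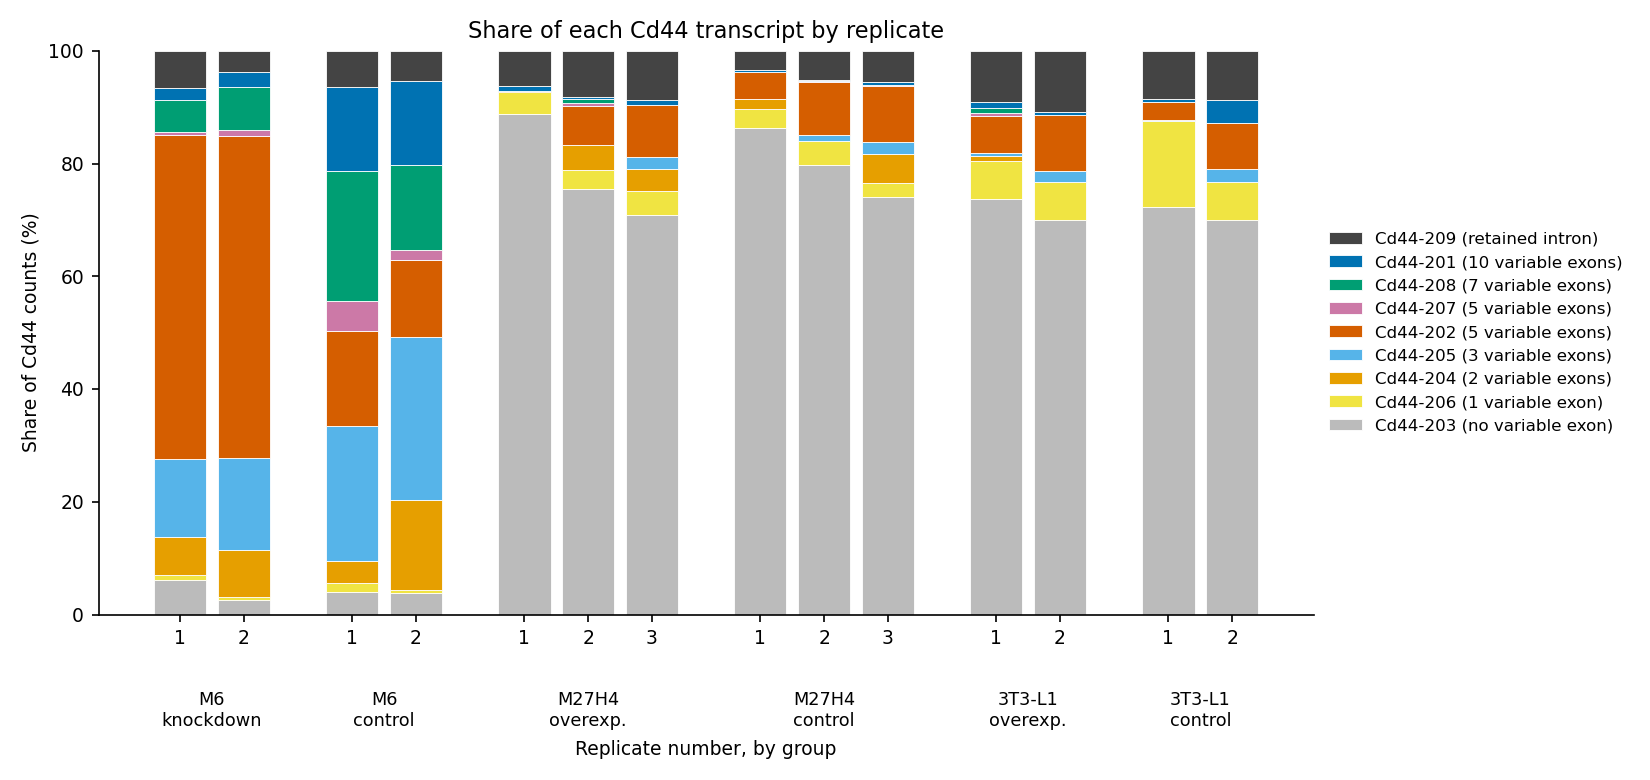
Share of Cd44 counts (%) assigned to each of the 9 transcripts, 1 bar per replicate, by group; the bars add to 100. Grey, the standard form, fills most of each bar in M27H4 and 3T3-L1 and little in M6, where Cd44-202 (dark orange) takes 57.5 and 57.3% in knockdown against 16.8 and 13.6% in control.

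Within M6 the total share of variable transcripts differed by less than the spread between replicates, while single variable transcripts stood far apart. Variable transcripts took 87.2 and 93.7% of Cd44 counts in M6 knockdown, against 89.5 and 90.9% in M6 control, a difference of 0.236 points between means of 90.4 ± 4.62% and 90.2 ± 0.954% (SD, n = 2 each). Cd44-202, which joins the shared exon to v6, had 57.5 and 57.3% in M6 knockdown, against 16.8 and 13.6% in M6 control. The groups were 42.2 points apart in their means, and both replicates of each lay within a few points of each other. The unadjusted p was 0.000432 and the adjusted p 0.449 in limma over all transcripts, so the difference did not pass. Esrp1 had 96.1 and 95.6 CPM in M6 knockdown, against 122 and 106 CPM in M6 control, and Esrp2 had 53.9 and 55.6 CPM, against 65.9 and 58.8 CPM (edgeR adjusted p = 1 for both). Both regulators were below the controls without passing, in a comparison where groups were apart for 26.4% of all genes tested. The summed level of the fibroblast markers was also below the controls and was not tested as a sum. The part of the regulators in the shares was not tested.

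The forms that hold the exons upstream of v6 were lower in both M6 knockdown replicates. Cd44-201 had 2.17 and 2.73% in M6 knockdown, against 14.8 and 14.9% in M6 control (difference −12.4 points, limma adjusted p = 0.449). Cd44-208 had 5.63 and 7.55% in M6 knockdown, against 23.1 and 15.2% in M6 control (−12.6 points, adjusted p = 0.849). Cd44-205, which starts at v8, had 13.7 and 16.2% in M6 knockdown, against 24.0 and 28.9% in M6 control (−11.5 points, adjusted p = 0.929). The groups did not overlap in these 3 transcripts. Cd44-207, under the share minimum for testing, had 0.554 and 1.07% in M6 knockdown, against 5.35 and 1.71% in M6 control.

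The remaining transcripts overlapped between the M6 groups. Cd44-204 had 6.74 and 8.38% in M6 knockdown, against 3.88 and 16.0% in M6 control. Cd44-203 had 6.18 and 2.59% in M6 knockdown, against 4.01 and 3.73% in M6 control. Cd44-206 had 0.882 and 0.545% in M6 knockdown, against 1.59 and 0.680% in M6 control, and the retained-intron form Cd44-209 had 6.64 and 3.70%, against 6.46 and 5.39%. In all, 0 of the 8 tested Cd44 transcripts were called, with 0.00387% of all transcripts tested called. Non-overlapping groups with means at least 10 points apart, as for Cd44-201, Cd44-202, Cd44-205 and Cd44-208, were found in 9.84% of all transcripts tested.

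As levels, Cd44-202 had 107 and 93.0 CPM in M6 knockdown, against 19.7 and 12.4 CPM in M6 control. All other variable transcripts together had 55.4 and 59.2 CPM in M6 knockdown, against 85.3 and 70.5 CPM in M6 control. The higher Cd44 level in M6 knockdown thus lay in Cd44-202, while the sum of the other variable forms was lower. Some columns of 1 replicate also differed among themselves, by up to 11.9 points for Cd44-205 in M6 control replicate 2 and 4.54 points for Cd44-202 in M6 knockdown replicate 2. The technical replicates of replicate 2 carry different library codes in both M6 groups, and the labels do not say whether they are the same preparation. With columns of the LR code that holds only M6 columns, which both M6 groups have, Cd44-202 had 57.5 and 60.1% in M6 knockdown, against 16.8 and 17.5% in M6 control (limma adjusted p = 0.140; 0.0946 to 0.970 over the 11 alternatives run).

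**Figure D4:**
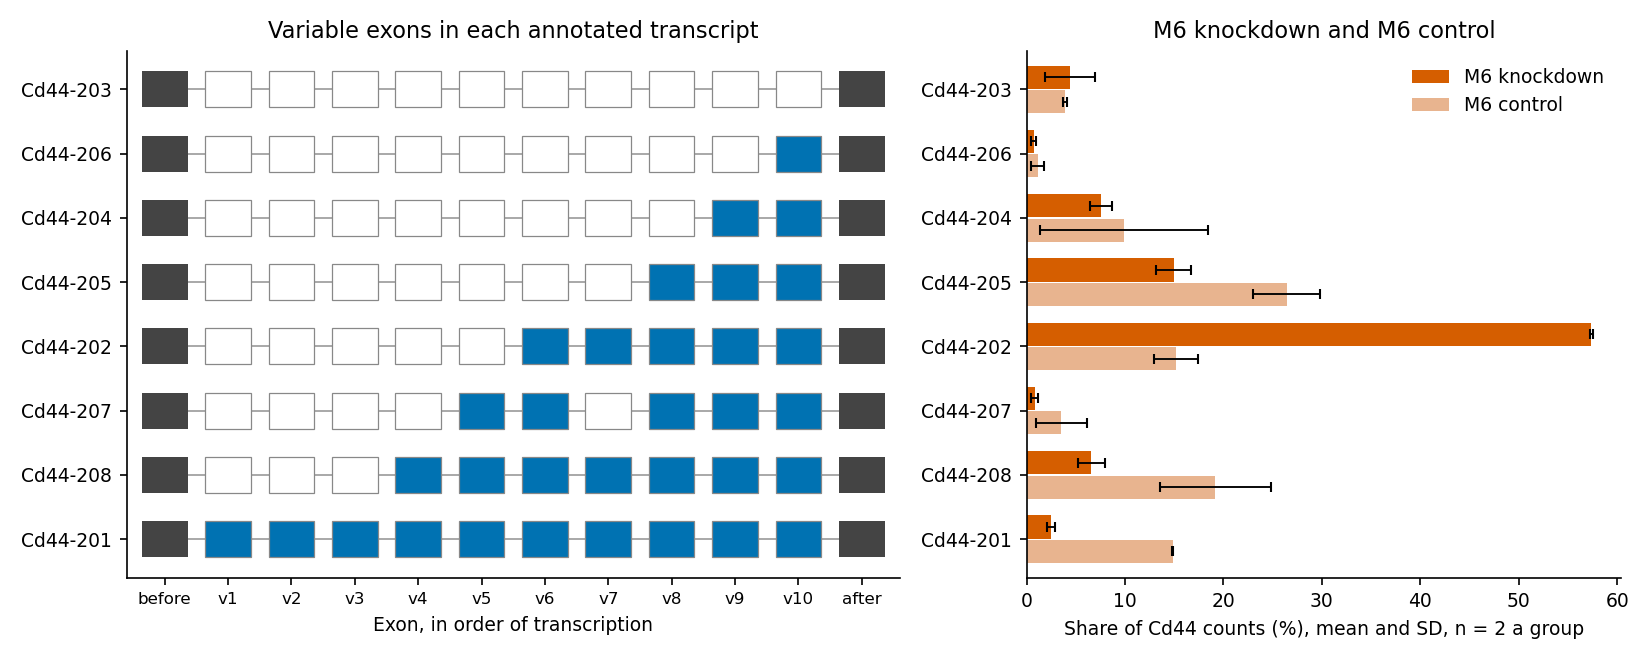
Left, the variable exons v1 to v10 (blue, present; white, absent) of the 8 protein-coding Cd44 transcripts, with the flanking exons in dark grey, not to genomic scale. Right, the mean share (%) of each transcript in M6 knockdown and M6 control with SD (n = 2 each); Cd44-202 has 57.4% in knockdown against 15.2% in control.

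Counted per exon, among the Cd44 transcripts that span the block and with counts divided by transcript length, the boundary lay between v5 and v6. Exon v4 was held by 8.88 and 11.1% of transcripts in M6 knockdown, against 34.8 and 22.2% in M6 control. Exon v5 was held by 9.18 and 11.7% in M6 knockdown, against 37.3 and 22.9% in M6 control. These exons were lower in knockdown, with the groups apart. Exon v6 was held by 54.4 and 54.0% in M6 knockdown, against 49.0 and 31.3% in M6 control, and v7 by 54.1 and 53.4%, against 46.4 and 30.5%. These exons were higher in knockdown, again with the groups apart. The rarely used v1 to v3 were held by 1.06 and 1.26% in M6 knockdown, against 6.40 and 5.69% in M6 control. From v8 on the groups overlapped, with v10 in 94.0 and 97.7% in M6 knockdown, against 96.6 and 97.2% in M6 control.

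The differences in means were −18.5 points for v4, −19.7 for v5, 14.1 for v6 and 15.3 for v7, each with the exact two-sided permutation p of 0.333 that is the smallest 2 against 2 can give. The v6 and v7 values rest on a spread in the controls, since without M6 control replicate 2 they were 5.23 and 7.37 points, and without M6 control replicate 1 they were 22.9 and 23.2 points. Without M6 control replicate 1 the v4 and v5 differences were −12.2 and −12.5 points. The mean number of variable exons per spanning transcript was 3.95 and 4.09 in M6 knockdown, against 4.64 and 3.89 in M6 control. The inclusion measure was chosen after the transcript shares had been seen.

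The annotated transcripts also differ in their last exon, and these classes moved with the shares. Transcripts with the longest last exon (3197 bases, Cd44-201 and Cd44-207) took 2.72 and 3.80% in M6 knockdown, against 20.2 and 16.6% in M6 control. Those with a last exon of 1791 or 1808 bases (Cd44-203 and Cd44-202) took 63.7 and 59.9% in M6 knockdown, against 20.8 and 17.4% in M6 control. Those with the shortest last exon (205 to 218 bases) took 27 and 32.6% in M6 knockdown, against 52.6 and 60.7% in M6 control. The counts are estimates that assign short reads to whole transcripts, so the choice of variable exons and of 3′ end cannot be told apart here.

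**Figure D5:**
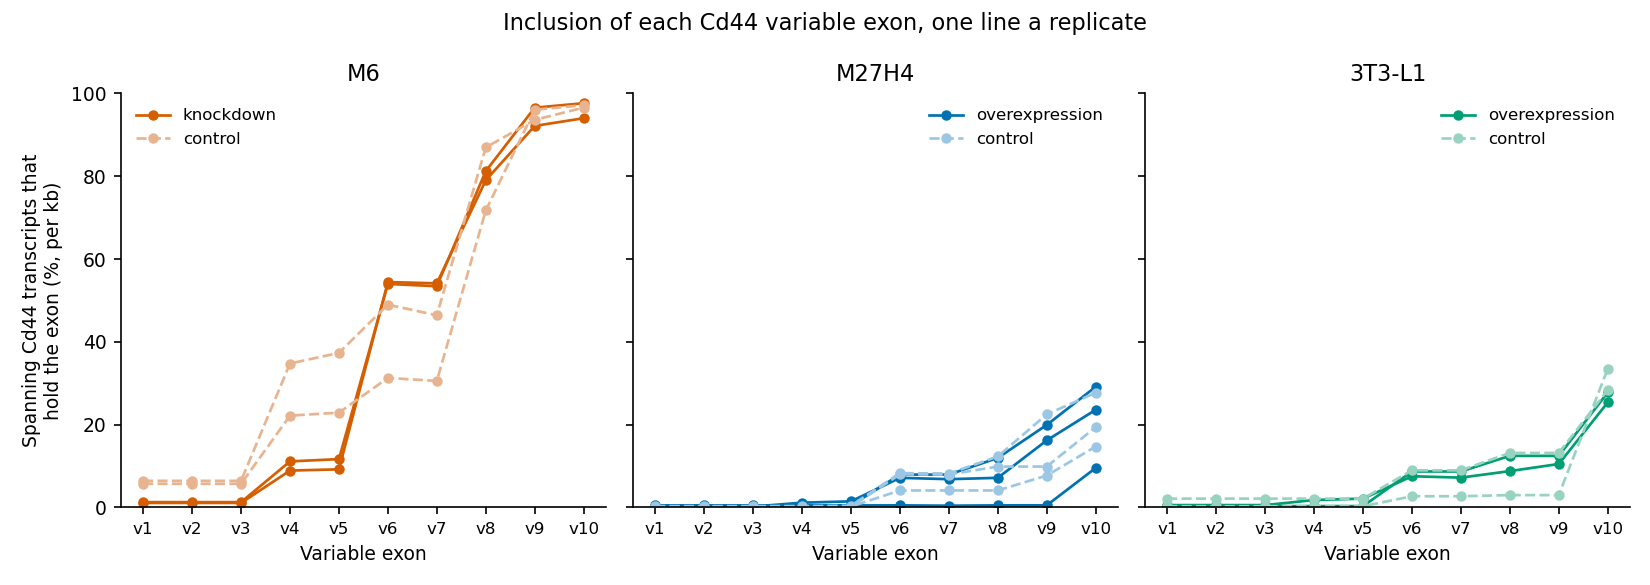
Share of spanning Cd44 transcripts (%, counts per kilobase) that hold each variable exon, v1 to v10, 1 line per replicate in each cell line. In M6, v4 and v5 lie between 8.88 and 11.7% in knockdown and between 22.2 and 37.3% in control; in M27H4 and 3T3-L1 no exon but v10 passes 22.5%.

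No Cd44 transcript share passed the test in the overexpression comparisons. The variable share was 4.96, 16.2 and 20.4% in M27H4 overexpression, against 10.3, 15.1 and 20.5% in M27H4 control (difference −1.43 points, exact two-sided permutation p = 0.8). It was 17.3 and 19.3% in 3T3-L1 overexpression, against 19.1 and 21.3% in 3T3-L1 control (difference −1.92 points, exact permutation p = 0.667). The groups overlapped in both lines. In each line 0 Cd44 transcripts were called, with 0% (M27H4) and 0.062% (3T3-L1) of all transcripts tested called. The retained-intron form Cd44-209 had 6.34, 8.28 and 8.77% in M27H4 overexpression, against 3.34, 5.14 and 5.50% in M27H4 control (difference 3.14 points, limma adjusted p = 1). Neither this fit nor the permutations paired the M27H4 replicates, whose same-numbered samples share LR codes and deviated together (r = 0.599, 0.340 and 0.356). Over the 13 alternatives run, the replicate block among them, 0 Cd44 transcripts were called in M27H4 overexpression. Cd44-209 had 9.07 and 10.8% in 3T3-L1 overexpression, against 8.58 and 8.75% in 3T3-L1 control (1.26 points, adjusted p = 1). Cd44-209 was the 1 of 8 tested Cd44 transcripts whose groups were apart in each line, as were 8.62% (M27H4) and 30.3% (3T3-L1) of all transcripts tested. The 8 include forms near 0 in these lines. Cd44-208 was at 0 in the controls of both lines and Cd44-204 in 3T3-L1 control, so they could not be lower in overexpression there. Per exon, v4 was held by 0.382, 1.13 and 0.465% of spanning transcripts in M27H4 overexpression, against 0.190, 0.139 and 0.289% in M27H4 control, and v5 was 0.540 points higher in the mean (exact two-sided permutation p = 0.1 for both, the smallest 3 against 3 can give). All other variable exons overlapped in M27H4, and v4 and v5 lie in nearly the same transcripts. Of these, Cd44-208 had 164 counts in overexpression replicate 2, all in 1 of its 2 columns. Exon v10 was 4.34 points lower in the mean of 3T3-L1 overexpression, with the groups apart (exact permutation p = 0.333, the smallest 2 against 2 can give). Esrp1 was at 0 in replicate 1 of M27H4 overexpression and of M27H4 control, the only columns of their LR code. These replicates had the lowest variable share of their groups. A single column of M27H4 control replicate 2, with 62 Esrp1 counts, had 9.74%, below the 10.3% of control replicate 1.

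Has2, the main hyaluronan synthase of these cells, had the largest value among members in the knockdown comparison. It had 414 and 336 CPM in M6 knockdown, against 183 and 146 CPM in M6 control. The groups were well apart, with means of 375 ± 55 and 165 ± 26.4 CPM (SD, n = 2 each) and a log2 fold change of 1.19 (SE 0.37, 95% interval 0.38 to 1.99). The unadjusted p was 0.00726 and the adjusted p 0.459 in edgeR's test, so it was not called. With the LR code that holds only M6 columns the log2 fold change was 1.11 (adjusted p = 0.419). Over the 12 alternatives run the adjusted p was 0.00681 to 1, and it was under 0.05 in 2 of them.

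Between lines Has2 was lower in M27H4. It had 102, 91.8 and 52.9 CPM in M27H4 control, against 183 and 146 CPM in M6 control, a log2 fold change of −1.0 (SE 0.33, edgeR adjusted p = 0.0360). It was the 1 member of 7 called in this comparison, in which 30.2% of all genes tested were called. The call ended without M6 control replicate 1 (adjusted p = 0.209), M6 control replicate 2 (0.0600), M27H4 control replicate 2 (0.0593) or M27H4 control replicate 3 (0.118). In the LR codes that hold controls of all 3 lines, as CPM of the column total, Has2 had 87.1 and 85.9 in M27H4 control, against 132 and 135 in M6 control. It had 103 and 113 CPM in 3T3-L1 control, which did not pass against M6 control (−0.61, adjusted p = 0.218) or M27H4 control (0.39, adjusted p = 0.394). Has2 had 134, 81.9 and 53.3 CPM in M27H4 overexpression and 86.9 and 109 CPM in 3T3-L1 overexpression, overlapping the controls.

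The other synthases were near or at the limit of detection. Has3 had 0.127 to 0.417 CPM in all 14 replicates. Has1 had 0 counts in both M6 groups and in M27H4 control, where a count of 0 allows up to 3 counts per replicate. It had 3, 11 and 0 counts in M27H4 overexpression, 2 and 0 in 3T3-L1 overexpression and 6 and 0 in 3T3-L1 control. At this depth no difference in Has1 was detectable.

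Of the hyaluronidases, Hyal1 was called between lines and Hyal2 in no comparison. Hyal1 had 0.578 and 0.751 CPM in 3T3-L1 control, against 5.07 and 4.02 CPM in M6 control and 5.18, 6.07 and 5.08 CPM in M27H4 control. The 3T3-L1 values were far below the rest. The log2 fold change was −2.77 (SE 0.31, edgeR adjusted p = 1.18e-05) against M6 control and −3.04 (SE 0.30, adjusted p = 4.93e-06) against M27H4 control. In the LR codes that hold controls of all 3 lines Hyal1 had 0.586 and 0.575 CPM of the column total in 3T3-L1 control, against 3.27 and 3.59 in M6 control and 5.65 and 5.76 in M27H4 control. In M6 knockdown it had 3.67 and 3.70 CPM, against 5.07 and 4.02 CPM in M6 control, just apart and not called (log2 fold change −0.30, edgeR adjusted p = 1).

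Hyal2 had 16.7 and 27.3 CPM in M6 knockdown, against 15.6 and 26.9 CPM in M6 control, so the replicates of a group differed more than the groups. It had 8.53, 15.1 and 15.5 CPM in M27H4 overexpression, against 14.6, 18.9 and 14.5 CPM in M27H4 control, and 18.6 and 16.9 CPM in 3T3-L1 overexpression, against 18.3 and 14.7 CPM in 3T3-L1 control. The ratio of Hyal2 to Hyal1 in TPM, a level per length, was 44.3 and 31.5 in 3T3-L1 control, against 4.69 and 9.83 in M6 control and 4.15 to 5.05 in M27H4 control. Hyal1 and Hyal2 are neighbours on chr9, at 107576927-107581710 and 107567945-107572779 of the plus strand. Hyal1 overlaps Hyal3 and Naa80 on that strand, Has2 has the antisense gene Has2os and Has3 overlaps Chtf8 on the other strand, and their values are uncertain where reads could be split.

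Cemip had 5.02 and 4.66 CPM in M6 knockdown, against 9.25 and 7.95 CPM in M6 control. The groups were apart, with a log2 fold change of −0.83 (SE 0.31, 95% interval −1.49 to −0.17, edgeR adjusted p = 0.614), which was not called. It had 4.78, 3.97 and 6.12 CPM in M27H4 overexpression, against 6.79, 5.67 and 4.74 CPM in M27H4 control, and 7.65 and 11.1 CPM in 3T3-L1 overexpression, against 6.60 and 9.56 CPM in 3T3-L1 control. No line difference passed. Its coding transcript Cemip-201 had a share of 83.5 ± 19.8% in M6 knockdown, against 53.0 ± 10.0% in M6 control (SD, n = 2 each), and the retained-intron form Cemip-202 had 9.84 ± 10.4%, against 29.9 ± 3.55% (limma adjusted p = 0.902 and 0.876). Of the 4 Hyal1, 3 Hyal2 and 4 Cemip transcripts tested, 0 were called in any comparison.

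Hmmr was lower in 3T3-L1 than in both tumour lines. It had 88.0 and 55.4 CPM in 3T3-L1 control, against 173 and 167 CPM in M6 control and 203, 253 and 222 CPM in M27H4 control. The log2 fold change was −1.24 (SE 0.24, edgeR adjusted p = 0.000983) against M6 control and −1.66 (SE 0.23, adjusted p = 7.72e-05) against M27H4 control. In the LR codes that hold controls of all 3 lines Hmmr had 90.0 and 86.7 CPM of the column total in 3T3-L1 control, against 152 and 154 in M6 control and 244 and 235 in M27H4 control. Hmmr and Hyal1 were the 2 members of 7 called in each of these comparisons, where 39.4% and 36.6% of all genes tested were called. In M6 knockdown Hmmr had 171 and 173 CPM, against 173 and 167 CPM in M6 control, a log2 fold change of 0.02 (95% interval −0.49 to 0.53). It had 251, 209 and 212 CPM in M27H4 overexpression and 77.9 and 54.3 CPM in 3T3-L1 overexpression, overlapping their controls.

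Of the 10 mitosis genes listed beside Hmmr, 7 were called lower and 0 higher in 3T3-L1 control against M6 control (median log2 fold change −0.97, against 0.05 over all genes tested), where 18.9% of all genes tested were called lower. Against M27H4 control 10 were called lower (median −1.14, against 0.02), where 17.8% of all genes were called lower. The spindle motor gene Kif11 had 83.6 ± 34.1 CPM in 3T3-L1 control, against 316 ± 48.9 CPM in M6 control and 306 ± 36.8 CPM in M27H4 control. The topoisomerase gene Top2a had 443 ± 166 CPM in 3T3-L1 control, against 1354 ± 317 CPM in M6 control and 1570.3 ± 179 CPM in M27H4 control. The motor gene Kif20a, which acts late in cell division, had 172 ± 57.5 CPM in 3T3-L1 control, against 389.6 ± 55.9 CPM in M6 control and 422 ± 62.9 CPM in M27H4 control. In the M6 knockdown and in both overexpression comparisons 0 of the 10 were called, with medians of −0.09, −0.04 and −0.06.

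Other genes of hyaluronan handling were called between lines only. Of 37 listed genes 26 were tested, and 0 were called in the M6 knockdown comparison (median log2 fold change 0.11), in M27H4 overexpression (−0.05) or in 3T3-L1 overexpression (−0.04). Unadjusted p was under 0.05 for 3 of them in the knockdown. In M27H4 control against M6 control 9 were called higher and 3 lower (median 0.48, against 0.02 over all genes tested), where 15.2% of all genes were called higher and 15% lower. Tnfaip6, which transfers protein chains onto hyaluronan, had 37.1 ± 5.51 CPM in M27H4 control, against 3.27 ± 1.14 CPM in M6 control (log2 fold change 3.49, edgeR adjusted p = 1.68e-06). Itih2, which encodes such a chain, had 102 ± 29.6 CPM in M27H4 control, against 3.88 ± 1.40 CPM in M6 control (4.74). Cemip2, a relative of Cemip at the cell surface, had 77.2 ± 4.21 CPM in M27H4 control, against 291 ± 41.3 CPM in M6 control (−1.92). The scavenger receptor gene Stab1 had 1.41 ± 0.219 CPM in M27H4 control, against 31.9 ± 3.49 CPM in M6 control. The link protein gene Hapln4 had 5.65 ± 0.729 CPM in M27H4 control, against 0.0600 ± 0.0849 CPM in M6 control.

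In 3T3-L1 control against M6 control 12 of the 26 were called higher and 3 lower (median 0.58), where 20.5% of all genes were called higher and 18.9% lower. Ptx3, a pentraxin of hyaluronan-rich matrix, had 206 ± 2.18 CPM in 3T3-L1 control, against 0.780 ± 0.839 CPM in M6 control. Cemip2 had 53.5 ± 2.07 CPM in 3T3-L1 control (log2 fold change −2.44 against M6 control), Hapln4 had 11.6 ± 1.32 CPM and Stab1 had 0.547 ± 0.471 CPM. Itih5 had 0.107 ± 0.00300 CPM in 3T3-L1 control and was at 0 in M6 control. In 3T3-L1 control against M27H4 control 4 were called higher and 7 lower (median −0.07), where 18.9% of all genes were called higher and 17.8% lower. Itih2 had 2.55 ± 0.425 CPM in 3T3-L1 control, against 102 ± 29.6 CPM in M27H4 control. Tnfaip6 had 8.88 ± 0.505 CPM, against 37.1 ± 5.51 CPM. Ugp2, which makes the precursor of a hyaluronan building block, had 144 ± 26.8 CPM, against 517 ± 193 CPM. Itih5 had 0.107 CPM, against 1.15 ± 0.542 CPM, and the innate receptor gene Tlr2 had 91.6 ± 22.1 CPM, against 32.3 ± 6.54 CPM.

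Among 12 genes of Cd44 partners and of enzymes that shed it, 0 were called in M6 knockdown (median log2 fold change 0.19, unadjusted p under 0.05 for 2), in M27H4 overexpression (−0.04) or in 3T3-L1 overexpression (0.08). In M27H4 control against M6 control 2 were called higher and 3 lower (median −0.21, against 0.02 over all genes tested), where 15.2% of all genes were called higher and 15% lower. Spp1, the gene of the Cd44 ligand osteopontin, had 10349 ± 1869 CPM in M27H4 control, against 1509 ± 467 CPM in M6 control (2.78, edgeR adjusted p = 4.61e-06). Ezr, whose product ties Cd44 to the actin cytoskeleton, had 205 ± 46.8 CPM in M27H4 control, against 399.5 ± 36.1 CPM in M6 control (−0.96). Epcam had 4.31 ± 4.06 CPM in M27H4 control, against 731 ± 151 CPM in M6 control, a call that ended with only the groups compared (adjusted p = 0.0623), and the matrix protease gene Mmp9 had 0.280 ± 0.208 CPM, against 3.16 ± 1.07 CPM. The galectin gene Lgals9 had 17.8 ± 3.41 CPM, against 10.5 ± 2.85 CPM (adjusted p = 0.0287), a call that ended without M6 control replicate 2 (0.205), M27H4 control replicate 1 (0.0839) or M27H4 control replicate 2 (0.0673), with only the groups compared (0.114) or with DESeq2's size factors (0.0610).

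In 3T3-L1 control against M6 control 2 of the 12 were called higher and 5 lower (median −0.47, against 0.05 over all genes tested), where 20.5% of all genes were called higher and 18.9% lower. The growth factor receptor gene Met had 70.7 ± 13.1 CPM in 3T3-L1 control, against 249 ± 48.3 CPM in M6 control (−1.82), and Ezr had 135 ± 0.505 CPM, against 399.5 ± 36.1 CPM (−1.57). Adam17, which sheds cell surface proteins, had 48.8 ± 4.33 CPM in 3T3-L1 control, against 137 ± 2.47 CPM in M6 control (−1.49). Lgals9 had 61.6 ± 19.1 CPM, against 10.5 ± 2.85 CPM (2.56). Mmp9 had 20.6 ± 4.49 CPM, against 3.16 ± 1.07 CPM (2.72, adjusted p = 0.00788), a call that ended without M6 control replicate 2 (0.0746) or 3T3-L1 control replicate 2 (0.0526). In 3T3-L1 control against M27H4 control 2 were called higher and 4 lower (median −0.46, against 0.02 over all genes tested), where 18.9% of all genes were called higher and 17.8% lower. Spp1 was at 1076 ± 283 CPM in 3T3-L1 control, against 10349 ± 1869 CPM in M27H4 control, and Met at 70.7 ± 13.1 CPM, against 345 ± 78.8 CPM. Mmp9 had 20.6 ± 4.49 CPM in 3T3-L1 control, against 0.280 ± 0.208 CPM in M27H4 control, and Lgals9 had 61.6 ± 19.1 CPM, against 17.8 ± 3.41 CPM. Adam17 had 48.8 ± 4.33 CPM, against 116 ± 39.5 CPM.

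The genes whose log2 CPM followed each member most closely over the 14 replicates, among 13466 genes, are given as a description. Replicates of a line share their cells, so the 14 values are not independent. For Cd44 they were Abcb1a (Pearson r = 0.887), Gtf3c1 (0.862) and Nbas (0.857). For Has2 they were Ptgs2 (0.940), Riok3 (0.908) and Adam8 (0.901). For Hyal1 they were Neurl1b (0.993), Rassf3 (0.990) and Cd200 (0.989), and for Hmmr they were Kif4 (0.992), Rbl1 (0.989) and Shcbp1 (0.988). Hyal2 was closest to Scamp2 (0.926), Dpagt1 (0.919) and Pcyox1l (0.898), and Cemip to Mapk1ip1 (0.893), Sorbs3 (0.879) and Zfp703 (0.878).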

How the data were processed

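The RNA of 21 labelled samples was read as whole-number expected counts per gene and transcript that the authors deposited; the submitters' processing notes name cutadapt, HISAT2, StringTie and edgeR, and the mm10 (GRCm38) build. Versions, strand setting and annotation release are not given in the sources used here. StringTie estimates such counts from coverage, so transcript shares depend on how it splits reads. Identifiers were matched to GENCODE M21 (48058 of 48440 genes, 116824 of 117667 transcripts; the unmatched held 0.0515% and 0.196% of counts). Normalized tables were not used; each holds 1 column that matches no sample.

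Columns the labels call technical replicates were summed, giving 14 replicates in 6 groups with 34892461 to 328493417 counts. Counting limits cover counting error only. Genes kept by filterByExpr (21237) were tested in a single fit of all groups with edgeR 4.0.16 (R 4.3.3), TMM factors and the quasi-likelihood test with 8 residual degrees of freedom. Shares of 25817 transcripts of 7382 genes, with a mean share of at least 2%, were tested after an arcsine square root transform (limma 3.58.1). P-values were adjusted over all features by Benjamini-Hochberg, and an adjusted p under 0.05 is a call. Both fits were tested on simulated data. Alternatives included DESeq2 1.42.0, limma voom, other filters and scales, single replicates left out and a replicate block.

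All 8 members are named; from each list up to 5 called genes (3 for mitosis) with the smallest adjusted p, and per tested member the 3 genes with the highest r over log2(CPM + 0.5) among genes of at least 1 CPM; Has3 is given by its levels only, and likeness is not given for it. The members and lists were chosen with earlier results of these data known. Same-numbered replicates deviated together over 13508 genes in M27H4 (r = 0.599, 0.340 and 0.356). Overexpression replicate 3 and control replicate 2 had r = 0.314. M27H4 replicates were paired in the replicate block only. The M27H4 values in the Results come from the fit without the block and from permutations without pairs. The block left 1 gene called over all genes in place of 2, and changed no call of a member there.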

Additional observations from a re-analysis of the deposited data

How the results depend on the processing

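The calls of Hyal1 and Hmmr in 3T3-L1 control against M6 control and M27H4 control, and of Cd44-203 in both tumour-line and preadipocyte comparisons with M6 control, held under all alternatives run. The knockdown comparison depends on the model: over all genes 29 were called, against 0 with only the groups compared, 41 with the LR code that holds only M6 columns, 64 without the low-count filter, 74 with limma voom, 235 with DESeq2 and 559 with columns as libraries, which counts technical repeats as replicates. Without single replicates it was 6 to 60. Over all transcripts the 1 called became 7 on log odds, 0 at a share of at least 5%, 14 with no minimum share, 33 with that LR code alone and 9 to 489 without single replicates.

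With columns as libraries, Cd44 was called in M6 knockdown (log2 fold change 0.80, edgeR adjusted p = 0.0208) and in M27H4 control against M6 control (0.48, adjusted p = 0.0268), and turned to −0.0042 in 3T3-L1 overexpression and 0.092 in 3T3-L1 control against M6 control; 2 members, Cd44 and Has2 (adjusted p = 0.00700), were called in M6 knockdown and 5 in M27H4 control against M6 control. On log odds 2 Cd44 transcripts were called in M27H4 control and 2 in 3T3-L1 control against M6 control. For 3T3-L1 these were Cd44-203 and Cd44-206 (limma adjusted p = 0.0397), both higher in 3T3-L1, so no variable form kept its lower call. With a share of at least 5%, 2 were called in each of these comparisons. The variable share in M6 knockdown minus control turned to −1.03 points per kilobase and −0.54 points with coding transcripts only or with standard and variable transcripts only. Hmmr in M6 knockdown turned to −0.065 with that LR code alone, as did Cd44-203 (−0.14 points), and Cd44-209 turned to 0.094 points per kilobase. These causes were not tested.

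Same-numbered M6 replicates (r = 0.577) share a number, and all M6 replicates have columns of 1 LR code. Same-numbered 3T3-L1 replicates (r = 0.356) also share LR codes, whose meaning the labels do not give. As in M27H4, neither line was paired in the main fit. With the block, 0 genes in place of 1 and 1 transcript in place of 16 were called in 3T3-L1. With the replicate block, 1 member was called in M6 knockdown (Has2, log2 fold change 1.19, adjusted p = 0.00681), 293 genes were called there over all genes, Cd44 had 0.75 (adjusted p = 0.0840) and 0 Cd44 transcripts were called; no block was run between lines, whose numbers share nothing in the labels.

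Without single replicates, the log2 fold change of Cd44 ran from 0.58 to 1.01 in M6 knockdown, −0.29 to 0.0042 in M27H4 overexpression, −0.27 to 0.46 in 3T3-L1 overexpression, −0.60 to 0.14 in 3T3-L1 control against M6 control and −0.59 to 0.15 for the difference between overexpression effects. Hyal2 ran from −0.36 to 0.51 in M6 knockdown, −0.75 to 0.047 in M27H4 control and −0.69 to 0.10 in 3T3-L1 control against M6 control, and −0.11 to 0.22 in 3T3-L1 control against M27H4 control. Hmmr ran from −0.0028 to 0.11 in M6 knockdown, and Cemip from −0.41 to 0.11 in 3T3-L1 control against M6 control. The members called ran from 0 to 1 in M27H4 control against M6 control, and the Cd44 transcripts called from 2 to 4 there and 2 to 5 in 3T3-L1 control against M6 control. The variable share ran from −3.03 to 3.50 points in M6 knockdown and −4.70 to 3.02 points in M27H4 overexpression. In M6 knockdown Cd44-203 ran from −1.28 to 2.32, Cd44-204 from −8.42 to 3.67, Cd44-206 from −0.88 to 0.034 and Cd44-209 from −2.22 to 0.71 points.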

Other observations

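The M27H4 columns of replicate 1 (overexpression and control), which share an LR code with no other column, stood apart in a way that bears on the reading of low epithelial genes. Of the genes with at least 20 CPM in every M6 control column, 15 had 0 counts in both of these columns, among them Esrp1, Cldn4, Krt6a and Prom2. In the other M27H4 columns the median of these 15 genes was 0.713 to 1.24% of their M6 control level. In the 3T3-L1 columns it was 0.314 to 0.669%. Esrp1 had 0.687 to 1.17 CPM in the other M27H4 columns and 0.244 to 0.796 CPM in the 3T3-L1 columns. The other LR codes hold columns of several lines or of M6. What these low values come from was not tested, and the genes were chosen after their values were seen.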
